A study of Mus musculus with 6 samples.

Results

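The genes described here are those of macrophages and other leukocytes that were measurable in RNA from cardiomyocyte-enriched cell populations of mouse hearts. Of 42 genes listed for these cells, 41 had a probe under that symbol in the platform's annotation, and 37 passed detection, which here means a probe whose deposited detection p-value fell under 0.05 on 2 or more arrays out of 6. These 37 are the members, out of 10538 genes measured by the same rule. All groups were C57BL/6J mice, with 2 arrays in each of 3 groups. Sham mice had surgery without constriction and no named drug or vehicle (sham). The second group had transverse aortic constriction, which loads the left ventricle with pressure, and DMSO for a time the labels do not state (TAC_DMSO). The third had constriction and BIX-01294, an inhibitor of the histone methyltransferases G9a and GLP, from osmotic pumps under the skin for 1 week (TAC_BIX). Because no vehicle is named for sham, constriction and vehicle cannot be told apart in the comparison of TAC_DMSO with sham. The submitters call the 2 arrays of a group biological replicates; the number of mice behind each is not given in the sources used here, and p-values measure the spread between these arrays.

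Macrophages are the most abundant leukocytes of the healthy mouse heart. Long-lived resident macrophages clear debris and dying cells and carry scavenger receptors such as those encoded by Mrc1, Cd163 and Folr2, while monocytes recruited from blood after injury or pressure load add cells rich in inflammatory and class II genes. Much of the signalling in these cells runs through small adaptor proteins, encoded by Tyrobp and Fcer1g, that pair with activating receptors. In RNA from a mixed population, fewer macrophages and less RNA per macrophage cannot be told apart.

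Between 36.7% and 40.9% of 45281 probes were detected per array. The 2 arrays of a group correlated across all these probes, detected or not, with r between 0.988 and 0.992. Arrays of different groups could correlate as closely, with r of 0.9888 for TAC_DMSO replicate 2 and TAC_BIX replicate 1. Of 12 listed cardiomyocyte markers 11 were measured, all detected, and their median deviation from each gene's mean over 6 arrays lay between -0.11 and 0.08 on the log2 scale. Myh6, Actn2, Myl2, Atp2a2 and Mb averaged 14.62 to 14.74, near the highest value of an array (14.98), where a difference may not show. Of the 11, 1 fell in TAC_BIX against sham (limma adjusted p = 0.0391). Tnni3, further from that limit, had means of 12.74 in sham, 12.19 in TAC_DMSO and 11.94 in TAC_BIX. Few markers of other leukocytes were detected. Among T cell markers, 3 of the 10 with a probe were detected, with Cd3d, Cd3e, Cd3g, Cd4 and Cd8a below the rule, and of 6 B cell markers 1 was detected. Of 13 neutrophil markers 7 were detected, with Mpo, Elane and Cxcr2 below it. Neutrophil markers deviated by 0.51 on sham replicate 1 and -0.13 on replicate 2, by 0.57 and -0.03 on the TAC_DMSO arrays and by -0.24 and -0.36 on those of TAC_BIX. Erythroid markers stood apart between replicates, at -0.17 and -1.65, -0.22 and 2.25, and 0.43 and -1.05 in the same order. Fibroblast markers deviated by -0.39 and -0.39, 0.45 and -0.27, and -0.09 and 0.67 in the same order.

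Among the 42 listed genes, 5 gave no measurement. The 4 genes below the detection rule were Ptprc, which encodes the pan-leukocyte phosphatase CD45, Cd48, an adhesion receptor gene, Cybb, the catalytic subunit of the phagocyte NADPH oxidase, and Ccr2, the receptor that draws monocytes from blood. Of the 4 probes of Ptprc, 1 was detected, on 1 array, and the 2 probes of Cybb were detected on none. Ccr2 was detected by 1 of 2 probes, on TAC_DMSO replicate 1, where it measured 4.98 on the log2 scale. Cd48 was detected on that array as well, at 4.87. Cd68, a lysosomal glycoprotein gene, was not analysed here, because no probe carried that symbol alone. Of the 37 members, 34 were detected on all 6 arrays; the other 3 were Spi1, Clec4d and Retnla.

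The first comparison asks how these genes differed after constriction with vehicle. Between TAC_DMSO and sham, 1 member fell and 0 rose (limma adjusted p under 0.05), against 0.408% of all 10538 genes called in either direction (0.209% higher, 0.199% lower). The gene that fell was Retnla, a secreted product of alternatively activated macrophages. Of the 37 members, 27 lay above sham and 10 below, with a median difference of 0.45 log2, against a median of -0.01 over all genes. The groups did not overlap for 7 members that were higher in TAC_DMSO and for 1 that was lower, that is 18.9% and 2.70% of the members, against 24.9% and 29% of all genes. The 7 were Clec4n, H2-Aa, H2-Ab1, H2-Eb1, Lst1, Lyz2 and Ms4a7. The median rested on single arrays: it was -0.01 without sham replicate 1 and -0.11 without TAC_DMSO replicate 1, and 0.83 and 0.90 without the other array of each group.

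The second comparison asks what the drug changed after constriction. No member passed (0 of 37 with limma, against 0% of all genes called), with 0 members higher and 7 lower at an unadjusted p under 0.05. Of all genes, 9.14% were higher and 10.7% lower at that unadjusted p. Counts of members called by other settings ran from 0 to 1. Of the 37 members, 34 lay below TAC_DMSO, with a median difference of -0.43 log2 against 0.03 over all genes. Both TAC_BIX arrays lay below both TAC_DMSO arrays for 12 members (32.4%) and above them for 0, against 23% and 28.7% of all genes. The 12 were Aif1, Ccl6, Cd163, Cd52, Clec4n, Fcer1g, H2-Aa, H2-Ab1, H2-Eb1, Lgals3, Lst1 and Tyrobp. The count of 34 and the median also rested on 1 array: without TAC_DMSO replicate 1, 18 members lay below and 19 above, with a median of 0.11. The 12 named members stayed below TAC_DMSO whichever array was left out, as groups without overlap must.

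The third comparison sets constriction with drug against sham. Retnla again fell and 0 members rose, against 6.65% of all genes called in either direction (2.74% higher, 3.91% lower). This comparison shares its sham arrays with the first and its TAC_BIX arrays with the second. Of the members, 16 lay above sham and 21 below, with a median of -0.13 log2 against -0.0036 over all genes. With median scaling the members' median was 0.60, against 0.53 over all genes. In the main processing, the members' median was 0.13 without TAC_BIX replicate 1, 0.27 without sham replicate 2 and -0.50 without sham replicate 1. The groups did not overlap for 8 members that were lower, namely Ccl6, Cd163, Fcer1g, Folr2, Lst1, Rac2, Retnla and Tyrobp, and for 4 that were higher, namely Clec4d, Lyz1, Lyz2 and Ms4a7. Those were 21.6% and 10.8% of the members, against 28.6% and 29.8% of all genes. Clec4d lay near the detection floor in both groups (means of 4.83 in TAC_BIX and 4.70 in sham). It was detected on 1 TAC_BIX array and 0 sham arrays, so its order carries little weight.

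**Figure D1:**
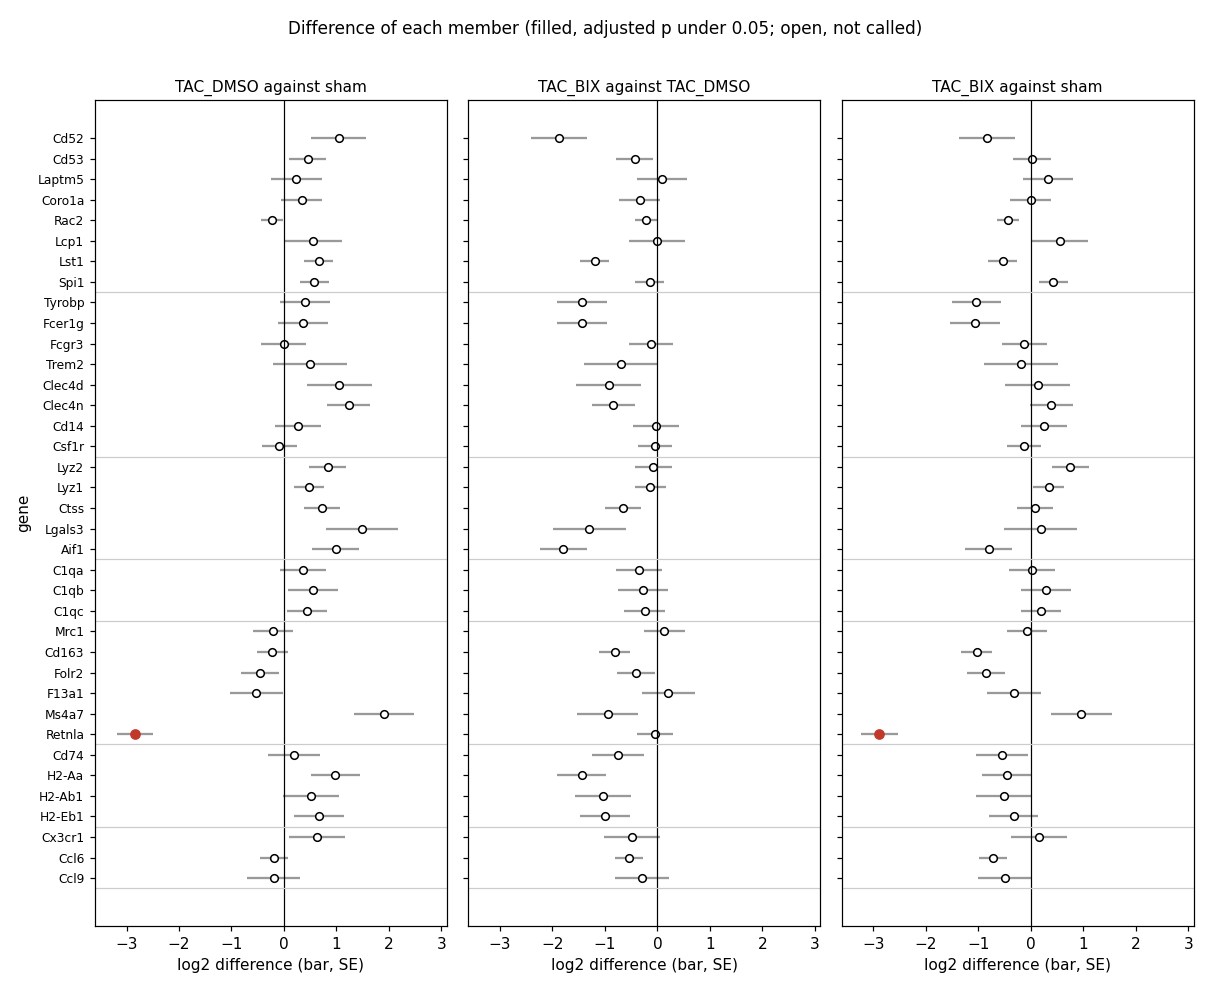
Log2 difference of each of the 37 members (points) with its standard error (bars) in the 3 comparisons, first group minus second; filled points have an adjusted p under 0.05. Retnla is the only filled point, at -2.84 and -2.89 against sham, and most members lie left of 0 in the comparison of TAC_BIX with TAC_DMSO.

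The members varied between replicate arrays more than genes at large. The median SD between the 2 arrays of a group was 0.61 log2 over the members in sham and 0.66 in TAC_DMSO, against 0.14 and 0.16 over all genes. In TAC_BIX it was 0.26 against 0.15. Sham replicate 2 lay above replicate 1 for most members, since replicate 1 was the higher for only 6 of 37 (16.2%, against 52.2% of all genes). In TAC_DMSO it was replicate 1 that was the higher, for 32 of 37 (86.5%, against 49.1%). TAC_DMSO replicate 1 gave the highest value of the 6 arrays for 25 members (67.6%), where it did so for 19.4% of all genes. Sham replicate 1 gave the lowest value for 16 members (43.2%, against 16.9%), and neither TAC_BIX array gave the highest value of any of the 37. Fibroblast (0.45) and neutrophil (0.57) markers were also raised on TAC_DMSO replicate 1. Neutrophil markers were raised on sham replicate 1 as well (0.51), and fibroblast markers were highest on TAC_BIX replicate 2 (0.67). The part of either list in the result was not tested.

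**Figure D2:**
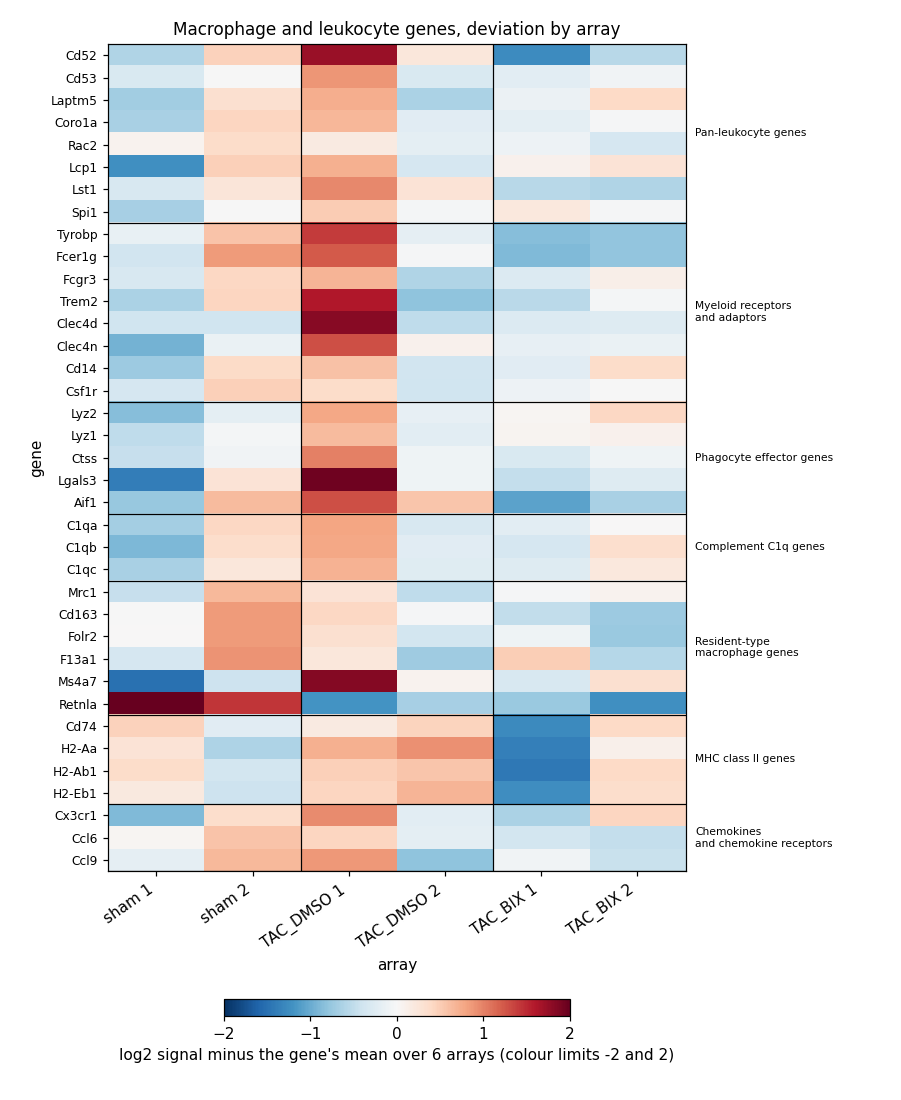
Deviation of each member (rows, grouped by role) from its own mean over the 6 arrays (columns), in log2 units by colour. TAC_DMSO replicate 1 is red for most rows, the MHC class II rows are blue on TAC_BIX replicate 1, and Retnla is red only on the sham arrays.

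Resident-type macrophage genes held the 1 member that passed. Retnla stood at 8.17 and 7.20 in sham, at 4.58 and 5.11 after TAC_DMSO and at 5.04 and 4.56 after TAC_BIX (log2 signal). Both sham arrays lay far above the other 4, and after constriction the gene was at the detection floor, detected on 1 of 2 arrays in each group. Its group means were 7.69 ± 0.69 in sham, 4.85 ± 0.38 in TAC_DMSO and 4.80 ± 0.34 in TAC_BIX (SD, n = 2), a fall of 7.17-fold with vehicle (adjusted p = 0.0439) and 7.40-fold with drug (adjusted p = 0.0162). Those folds can be compressed by the floor, and TAC_BIX differed from TAC_DMSO by -0.05 ± 0.35 (SE). The fall with vehicle stayed past the threshold without TAC_DMSO replicate 2 (adjusted p = 0.0308) and not without any other array (0.0949 to 0.120), and with the authors' processed values it was -0.95 (0.0643). The fall with drug was not past it without sham replicate 1 (0.0599), sham replicate 2 (0.0716) or TAC_BIX replicate 2 (0.200). The promoter of Retnla is shown because this was the member that changed. It is the RefSeq sequence on GRCm38.p6, chr16:48842359-48842658, plus strand, from 250 bases before to 50 after the annotated start; capitals mark a match to the core letters bound by PU.1 and other ETS factors, on the opposite strand, 198 bases before the start.

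Retnla promoter: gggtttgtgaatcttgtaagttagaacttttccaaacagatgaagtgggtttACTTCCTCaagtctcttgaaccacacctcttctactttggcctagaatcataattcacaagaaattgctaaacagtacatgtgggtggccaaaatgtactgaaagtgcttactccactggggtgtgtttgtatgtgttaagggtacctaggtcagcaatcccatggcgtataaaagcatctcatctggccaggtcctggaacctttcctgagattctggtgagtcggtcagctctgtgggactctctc

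The scavenger receptor gene Cd163 gave 6.97 and 7.83 for the sham arrays, then 7.39 and 6.97 for TAC_DMSO and 6.49 and 6.25 for TAC_BIX. Both arrays with drug lay below all 4 others; the difference from sham was -1.03 ± 0.30 (SE, adjusted p = 0.0821) and that from TAC_DMSO -0.81 ± 0.30 (0.196). The difference from sham passed when limma's prior was robust and followed intensity (adjusted p = 0.0471). Folr2, the folate receptor beta gene, measured 7.98 and 8.83, 8.30 and 7.61, and 7.89 and 7.22 in the same order. Its TAC_BIX arrays lay below both sham arrays but overlapped with TAC_DMSO, and its 2 probes agreed in sign in all 3 comparisons. Ms4a7, a membrane protein gene of macrophages, ran the other way. It measured 6.42 and 7.49 on the sham arrays, 9.75 and 7.98 with TAC_DMSO and 7.59 and 8.23 with TAC_BIX, so every array after constriction lay above both sham arrays. Its difference with vehicle was 1.91 ± 0.58 (SE, adjusted p = 0.123), the largest positive one among the members, and it passed without TAC_DMSO replicate 2, when it was 2.79 (0.0411). Mrc1, the mannose receptor gene, and F13a1, which encodes the A subunit of a clotting factor, differed by -0.53 to 0.21 in the 3 comparisons, with adjusted p of 0.573 or more.

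The adaptor genes Tyrobp and Fcer1g had the largest differences under drug among receptors and adaptors. Tyrobp stood at 6.74 and 7.46 in sham, at 8.29 and 6.70 after TAC_DMSO and at 6.03 and 6.09 after TAC_BIX. For Fcer1g, the common gamma chain of Fc receptors, the values were 8.82 and 10.05, 10.43 and 9.18, and 8.32 and 8.42. Both TAC_BIX arrays lay below the other 4 arrays for each gene. TAC_BIX differed from TAC_DMSO by -1.43 ± 0.47 for Tyrobp and -1.44 ± 0.48 for Fcer1g (SE, adjusted p = 0.165 and 0.167), and from sham by -1.04 and -1.07 (0.211 and 0.203). Without TAC_DMSO replicate 1 the differences from TAC_DMSO were -0.64 and -0.81, and without replicate 2 they were -2.23 and -2.06. Member receptors that pair with these adaptors had smaller differences between TAC_BIX and TAC_DMSO, of unlike size. Fcgr3, a low-affinity Fc receptor gene, differed by -0.12 ± 0.43, and Trem2, a lipid-sensing receptor gene, by -0.69 ± 0.71. Clec4n and Clec4d, described below, differed by -0.84 ± 0.40 and -0.92 ± 0.62. The differences between the adaptors and these receptors were not tested. Trem2 measured 7.51 on TAC_DMSO replicate 1 and 5.10 on replicate 2, the widest gap between replicates among the members together with Clec4d.

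Clec4d and Clec4n are neighbouring genes of C-type lectin receptors for microbial glycolipids and sugars, and both signal through the gamma chain. Clec4n gave 5.45 and 6.25 for the sham arrays, then 7.68 and 6.48 for TAC_DMSO and 6.23 and 6.26 for TAC_BIX. Both TAC_DMSO arrays were above the other 4, by 1.23 ± 0.40 against sham (SE, adjusted p = 0.141) and 0.84 log2 against TAC_BIX (0.298). Clec4d was below detection on both sham arrays (4.70 and 4.70), and it measured 6.93 and 4.59 in TAC_DMSO and 4.82 and 4.85 in TAC_BIX. It was clearly above the floor on TAC_DMSO replicate 1 alone, and replicate 2 lay below both sham arrays. With sham set at the floor, the TAC_DMSO mean was 1.72-fold higher. That is not a lower bound, because TAC_DMSO replicate 2 was below detection too. The difference from sham did not pass (limma adjusted p = 0.357, 95% confidence interval -0.39 to 2.49). Without TAC_DMSO replicate 2, which leaves replicate 1 as the group, the difference was 2.22. Csf1r, the receptor for the growth factor on which macrophages depend, differed by -0.13 to -0.05, with a second probe that disagreed in sign in both comparisons of TAC_BIX. Cd14, the lipopolysaccharide co-receptor gene, differed by -0.03 to 0.27. Between TAC_BIX and TAC_DMSO their 95% confidence intervals were -0.81 to 0.72 for Csf1r and -1.05 to 1.00 for Cd14. Changes of any size within those bounds are compatible with these arrays.

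**Figure D3:**
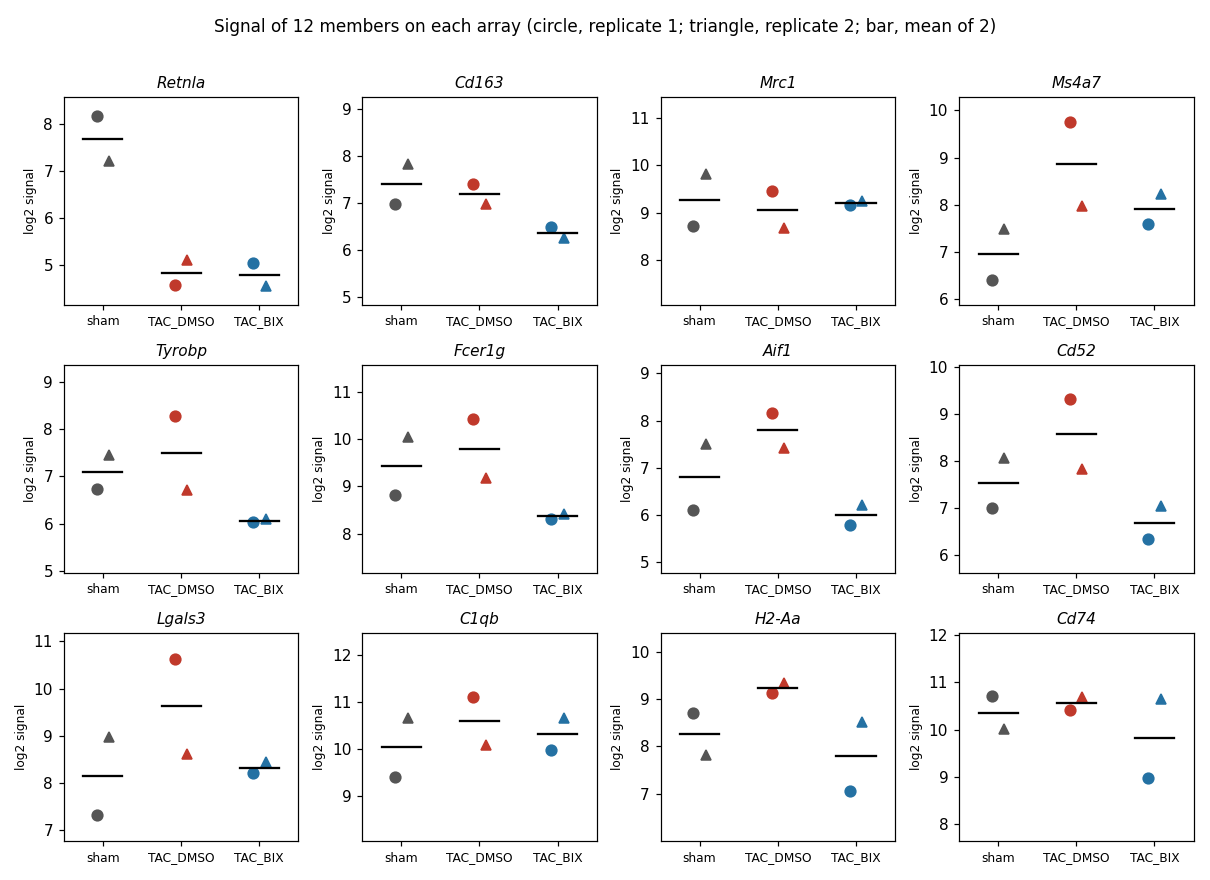
Log2 signal (vertical axis, each panel spanning the same number of units) of 12 members on each array by group; circles are replicate 1, triangles replicate 2 and bars the mean of both. Both TAC_BIX arrays of Tyrobp, Fcer1g and Cd163 lie below the other 4 arrays, Retnla is high only in sham, and the TAC_BIX arrays of H2-Aa and Cd74 lie far apart.

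Among pan-leukocyte genes, Cd52 and Lst1 differed most. Cd52, which encodes a short surface glycoprotein of leukocytes, measured 6.99 and 8.06 on the sham arrays, 9.32 and 7.83 with TAC_DMSO and 6.35 and 7.04 with TAC_BIX. The TAC_BIX arrays lay below both TAC_DMSO arrays, by 1.88 ± 0.53 on average (SE, adjusted p = 0.120), and a second probe gave 1.56 in the same direction; without TAC_DMSO replicate 1 the difference was -1.13. Lst1, the leukocyte-specific transcript gene, measured 5.35 and 5.92, 6.64 and 5.95, and 5.12 and 5.08 in the same order. Its 3 groups did not overlap, with TAC_DMSO highest and TAC_BIX lowest; the difference of -1.20 ± 0.28 between these had the smallest adjusted p of the members in that comparison (0.0837), and it passed with that robust prior (0.0395). The effector gene Aif1, which encodes an actin-binding protein of activated macrophages and lies next to Lst1 on chromosome 17, measured 6.11 and 7.50, 8.16 and 7.42, and 5.79 and 6.21. For Aif1 too the TAC_BIX arrays lay below both TAC_DMSO arrays (-1.79 ± 0.45, adjusted p = 0.0936), and a second probe gave -1.44.

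The other pan-leukocyte members were flatter. Rac2, a GTPase gene of blood cells, stood at 5.50 and 5.81 in sham, at 5.62 and 5.24 after TAC_DMSO and at 5.33 and 5.11 after TAC_BIX. Spi1, which encodes the macrophage transcription factor PU.1, lay near the floor, at 4.43 and 5.09, 5.61 and 5.06, and 5.31 and 5.07, and was detected on 1 of 2 sham arrays. Neither gene differed by more than 0.58 log2 in any comparison (adjusted p of 0.235 or more). Cd53, Laptm5, Coro1a and Lcp1, genes of a tetraspanin, a lysosomal membrane protein and 2 actin-binding proteins, differed by -0.43 to 0.56 (adjusted p of 0.488 or more).

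Among the phagocyte effectors, Lgals3, the galectin-3 gene, which other cardiac cells also express, spread most. It gave 7.31 and 8.97 for the sham arrays, then 10.64 and 8.61 for TAC_DMSO and 8.21 and 8.44 for TAC_BIX. TAC_DMSO replicate 1 alone stood well above the rest; the differences were 1.48 ± 0.69 against sham and -1.30 ± 0.69 under drug (SE, adjusted p = 0.255 and 0.341). Ctss, the gene of cathepsin S, a protease that processes the class II invariant chain, measured 5.47 and 5.87, 6.94 and 5.84, and 5.64 and 5.85, with all 3 groups overlapping. Lyz2, the lysozyme gene of myeloid cells, measured 10.78 and 11.43, 12.41 and 11.47, and 11.67 and 12.05. Every array after constriction lay above both sham arrays, by 0.83 ± 0.35 with vehicle and 0.76 ± 0.35 with drug (adjusted p = 0.212 and 0.214). Lyz2 and its neighbour Lyz1 are near-identical copies whose transcripts a probe may not separate, and their probes disagreed: against sham, 2 further Lyz2 probes gave -0.32 and -0.48 with drug, and 2 further Lyz1 probes gave -0.53 and -1.16 where the brightest gave 0.34. With vehicle, the further Lyz2 probes gave 0.21 and 0.16 and the further Lyz1 probes -0.30 and -0.69. The dimmest Lyz2 probe was detected on 5 arrays and the further Lyz1 probes on 4 and 3, so these lay near the floor. The direction of Lyz1, and of Lyz2 with drug, is therefore uncertain. The Lyz2 probes shared a sign with vehicle, where the difference of the brightest did not pass.

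The 3 genes of complement C1q, C1qa, C1qb and C1qc, are neighbours on chromosome 4, encode the chains of the recognition molecule of the classical pathway, and kept one order across the sham and TAC_DMSO arrays. C1qb measured 9.41 and 10.66 on the sham arrays, 11.10 and 10.08 with TAC_DMSO and 9.98 and 10.66 with TAC_BIX. C1qa measured 7.68 and 8.78, 9.15 and 8.05, and 8.14 and 8.37, and C1qc measured 9.30 and 10.18, 10.64 and 9.71, and 9.70 and 10.16. All 3 were lowest on sham replicate 1 and highest on TAC_DMSO replicate 1, and the 3 groups overlapped in each. Under drug they differed from TAC_DMSO by -0.35 to -0.25 (adjusted p of 0.705 or more), with a 95% confidence interval of -1.37 to 0.83 for C1qb.

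The 4 class II genes had their lowest value on the same array. H2-Aa, which encodes a class II alpha chain, stood at 8.70 and 7.82 in sham, at 9.13 and 9.34 after TAC_DMSO and at 7.06 and 8.53 after TAC_BIX. Its neighbours H2-Ab1 and H2-Eb1, beta chain genes, measured 10.14 and 9.40, 10.25 and 10.33, 8.34 and 10.17, and 9.55 and 8.94, 9.78 and 10.04, 8.12 and 9.72, respectively. Cd74, the invariant chain gene, which lies on another chromosome, measured 10.71 and 10.02, 10.42 and 10.70, and 8.98 and 10.65. All 4 were lowest on TAC_BIX replicate 1, where their median deviation was -1.32, and none was highest on TAC_DMSO replicate 1, which held for other members too, among them 5 of 6 resident-type genes. Sham replicate 1 lay above replicate 2 for each, the reverse of the C1q genes. TAC_BIX was below TAC_DMSO by 1.44 ± 0.47 for H2-Aa, 1.03 ± 0.53 for H2-Ab1, 0.99 ± 0.47 for H2-Eb1 and 0.75 ± 0.50 for Cd74 (SE, adjusted p of 0.159, 0.324, 0.290 and 0.442). Without TAC_BIX replicate 1 these differences were -0.71, -0.12, -0.20 and 0.09. The 2 TAC_BIX arrays differed from each other by more than that, with SDs of 1.04 to 1.29, and without TAC_BIX replicate 1 all 4 lay above sham, by 0.27 to 0.47.

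The promoters of H2-Aa and H2-Eb1 are shown because the class II genes moved together across the arrays; this motif and these promoters were chosen after their values were seen. Both are RefSeq sequences on GRCm38.p6, H2-Aa at chr17:34287774-34288073 on the minus strand and H2-Eb1 at chr17:34305617-34305916 on the plus strand. Capitals mark the letters CTGATTGG of the Y box, a class II promoter element bound by NF-Y, 51 bases before the start of H2-Aa and 62 before that of H2-Eb1.
H2-Aa promoter: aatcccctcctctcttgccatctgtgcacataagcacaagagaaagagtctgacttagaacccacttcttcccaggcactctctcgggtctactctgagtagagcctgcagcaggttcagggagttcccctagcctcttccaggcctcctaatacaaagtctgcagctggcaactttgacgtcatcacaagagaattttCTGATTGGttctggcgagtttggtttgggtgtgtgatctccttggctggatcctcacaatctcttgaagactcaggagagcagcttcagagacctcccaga
H2-Eb1 promoter: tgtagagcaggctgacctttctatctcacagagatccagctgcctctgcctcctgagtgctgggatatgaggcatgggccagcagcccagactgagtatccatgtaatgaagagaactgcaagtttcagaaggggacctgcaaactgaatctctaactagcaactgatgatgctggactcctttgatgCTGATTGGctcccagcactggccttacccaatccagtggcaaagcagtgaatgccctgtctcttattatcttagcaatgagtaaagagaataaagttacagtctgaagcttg

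Promoter sequences were matched for 26 of the 37 members, with 32 promoters in all. The letters GAGGAAGT, searched on both strands, stood in a promoter of 5 of the 26 genes (19.2%: C1qc, Cd53, Ctss, F13a1 and Retnla), against 3.69% of the 27025 genes in the RefSeq table. CTGATTGG stood in those of 2 of 26 (7.69%), both class II genes, against 4.70% of all. The 2 motifs did not overlap in any member promoter, and a match describes letters only.

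Of the chemokine members, Cx3cr1, the receptor for fractalkine, gave 5.27 and 6.50 for the sham arrays, then 7.10 and 5.94 for TAC_DMSO and 5.52 and 6.57 for TAC_BIX. The groups overlapped throughout. Ccl6 and Ccl9 are neighbouring genes of CC chemokines that attract myeloid cells. Ccl6 measured 6.43 and 6.96, 6.82 and 6.20, and 6.02 and 5.92, and both TAC_BIX arrays lay below the other 4 (-0.72 ± 0.27 against sham, SE, adjusted p = 0.139). Ccl9 measured 8.62 and 9.45, 9.67 and 8.001, and 8.73 and 8.36, and its groups overlapped (adjusted p of 0.586 or more).

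**Figure D4:**
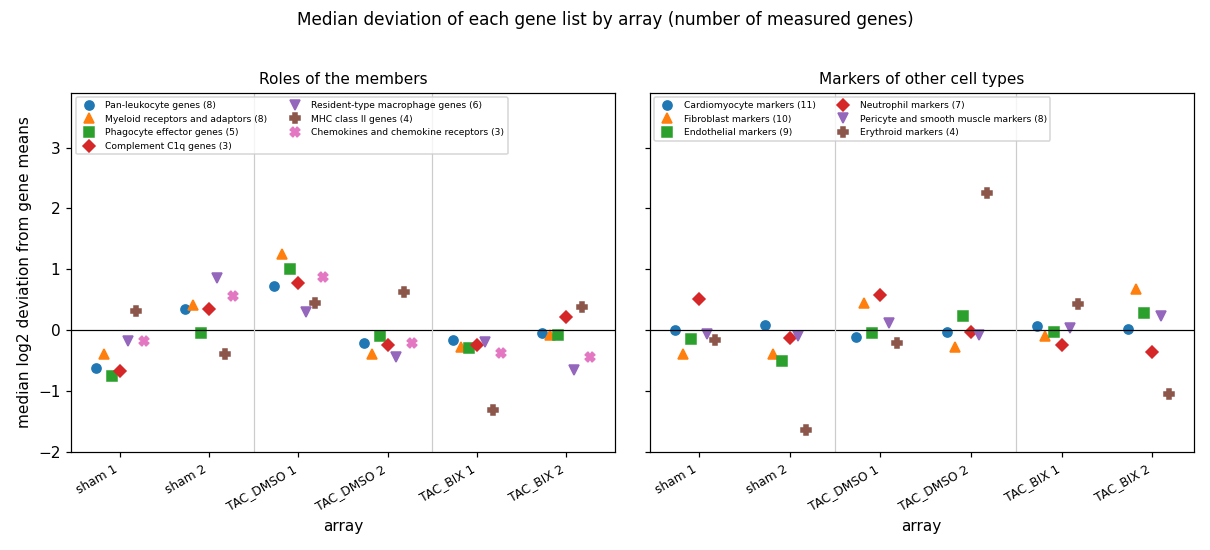
Median log2 deviation from each gene's mean (vertical axis) of the member roles (left) and of markers of other cell types (right) on each array (horizontal axis), with the number of measured genes in the key. Pan-leukocyte, receptor, effector and C1q genes are high on TAC_DMSO replicate 1 (0.72 to 1.26), class II genes are low on TAC_BIX replicate 1 (-1.32), and cardiomyocyte markers stay within -0.11 to 0.08.

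Genes around the members were read in lists beside them. Of 42 further macrophage and monocyte genes, 0 rose and 0 fell in TAC_DMSO against sham, with 31 above, 11 below and a median of 0.39. Under drug against TAC_DMSO 0 passed, with 10 above, 32 below and a median of -0.29. The chemokine genes Ccl4 (1.39 ± 0.30) and Ccl3 (1.02 ± 0.28) and Clec7a, a beta-glucan receptor gene (0.82 ± 0.23), had differences with vehicle that did not pass (SE, adjusted p = 0.0752, 0.109 and 0.107). Lyve1, the next by p, went the other way (-0.85 ± 0.28, adjusted p = 0.144), with both TAC_DMSO arrays below both sham arrays. Against sham, 1 of the 42 fell under drug, Pf4, a chemokine gene of platelets and resident macrophages (-1.57 ± 0.36, adjusted p = 0.0472). It measured 8.81 and 9.32 on the sham arrays, 9.49 and 8.64 with TAC_DMSO and 7.90 and 7.09 with TAC_BIX, so the TAC_BIX arrays lay below the other 4. Adgre1, which encodes the macrophage marker F4/80, measured 7.14 and 8.03, 8.67 and 7.51, and 7.81 and 7.98, the same order across sham and TAC_DMSO arrays as the C1q genes.

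Of 12 growth factor, chemoattractant and receptor genes, 0 passed in any comparison; medians were 0.40 with vehicle, -0.33 under drug against TAC_DMSO and 0.10 under drug against sham. Ccl5, a chemokine gene below detection in sham, was at least 1.42-fold higher in TAC_DMSO (adjusted p = 0.0790), and Cx3cl1, the ligand gene of Cx3cr1, differed by 0.83 ± 0.23 (0.106). Csf1, the ligand gene of Csf1r, measured 6.35 and 7.12, 7.36 and 7.36, and 7.38 and 6.78 in sham, TAC_DMSO and TAC_BIX.

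The class II partners repeated part of the class II pattern, with 0 of 10 passing in any comparison. Their median was 0.22 with vehicle, -0.50 under drug against TAC_DMSO and -0.15 under drug against sham. H2-DMa and H2-DMb1 encode the chaperone that loads peptides on class II molecules. H2-DMa stood at 6.95 and 6.77 in sham, at 7.57 and 7.55 after TAC_DMSO and at 6.32 and 6.92 after TAC_BIX. It was lowest on TAC_BIX replicate 1, like the class II genes, and differed under drug by -0.94 ± 0.23, H2-DMb1 by -0.85 ± 0.24 (SE, adjusted p = 0.0905 and 0.124). Ciita, the class II master regulator gene, was below detection on both sham arrays and was detected on 1 array in each of the other groups. Of 8 genes of ITAM signalling and of NADPH oxidase partners, 0 passed; Cyba, the small subunit of the oxidase membrane core, differed by -1.10 ± 0.23 under drug (adjusted p = 0.0712), and its TAC_BIX arrays (8.82 and 9.09) lay below both TAC_DMSO arrays (10.25 and 9.87) and both sham arrays (9.37 and 9.82).

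Markers of other leukocytes that passed against sham under drug were 1 of 7 neutrophil genes, S100a8 (-1.53 ± 0.26, adjusted p = 0.0244), 1 of 2 NK cell genes, the perforin gene Prf1 (-1.13 ± 0.18, 0.0225), and 1 of 2 dendritic cell genes, Siglech (-1.08 ± 0.18, 0.0239), where 3.91% of all genes were called lower. S100a8 gave 7.51 and 7.24 for the sham arrays, then 7.98 and 7.58 for TAC_DMSO and 5.52 and 6.17 for TAC_BIX. Both arrays with drug lay below the other 4. The summed signal of the 7 neutrophil genes was 413 and 675 on the sham arrays. It was 1416 and 421 with TAC_DMSO and 469 and 337 with TAC_BIX. Lcn2, 1 of the 7, measured 6.47 and 8.88, 9.998 and 7.22, and 8.57 and 7.76 in the same order. It had the highest value of the 7 on sham replicate 2, TAC_DMSO replicate 1 and both TAC_BIX arrays. In sham the median deviation of the list ran opposite to the sum, at 0.51 and -0.13. The sum therefore does not stand for the list, and the part of neutrophil genes in the members' differences was not tested. Prf1 measured 8.32 and 8.31, 7.47 and 7.74, and 7.29 and 7.08, and its 3 groups did not overlap. Siglech measured 6.06 and 5.87, 5.03 and 4.96, and 5.02 and 4.755 in the same order. It was near the floor after constriction and was detected on 1 TAC_BIX array. Between TAC_BIX and TAC_DMSO, S100a8 differed by -1.93 ± 0.26 (SE, limma adjusted p = 0.0652), where the smallest adjusted p over all genes was 0.059. All 7 neutrophil genes lay below TAC_DMSO there, with a median of -0.29, and S100a9 differed by -1.02 ± 0.24 (0.0882). In the same comparison Prf1 differed by -0.42 ± 0.18 and Siglech by -0.11 ± 0.18 (SE, adjusted p = 0.258 and 0.788). Of markers with a probe, 2 of 7 for NK cells and 2 of 8 for dendritic cells were detected. Of 3 T cell, 1 B cell and 3 mast cell genes measured, 0 passed in any comparison.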

How the data were processed

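RNA was hybridised to 6 Illumina mouse arrays, 2 per group. GenomeStudio (2011.1), lumi and limma are named in the submitters' processing notes, with no role given. The authors deposited a signal intensity per probe, not normalized per the file's name, with a detection p-value, in steps of 936 negative controls, and a table of log2 values that share 1 distribution and rank the probes as the signals do.

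The function neqc of limma 3.58.1 (R 4.3.3) corrected background with negative controls inferred from the detection p-values, added an offset of 16, quantile normalized and took log2. Probes detected (p under 0.05) on at least 2 arrays were kept (19273 of 45281). A gene, named by the platform annotation, was its brightest kept probe. Entrez identifiers matched all 37 members to RefSeq and changed 0 symbols. A single limma model of 3 group means used all 6 arrays (3 residual and 4.62 prior degrees of freedom), two-sided, with Benjamini-Hochberg adjustment over 10538 genes. Confidence intervals are the model's. "At least" folds set a group below detection at the higher of its own signal and the lowest detected signal of each array (4.80 to 4.99). The fold of Clec4d with vehicle was taken in the same way. The procedure was tested on simulated data.

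Members, roles and lists were chosen with earlier results of these data known. Values on every array are given for members called, for up to 4 per role with the smallest p over the comparisons, and for any whose probes differed in sign by over 0.5 each. From the other lists up to 4 genes with the smallest p in a comparison were named. Adgre1, and Trem2 on the TAC_DMSO arrays, were singled out after their values were seen. The number of arrays limits the precision. With 2 arrays a group, an exact permutation test of 1 gene cannot go below p = 0.333.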

Additional observations from a re-analysis of the deposited data

How the results depend on the processing

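Retnla was lower than sham under all 15 alternatives, but its call was often lost. In TAC_DMSO it was lost without a detection filter (adjusted p = 0.0788), with the authors' values (0.0643), with a replicate block (0.115), and without either sham array, either TAC_BIX array or TAC_DMSO replicate 1 (0.0949 to 0.120). In TAC_BIX it was lost without either sham array (0.0599 and 0.0716) or without TAC_BIX replicate 2 (0.200). In TAC_DMSO against sham, genes called numbered 284 with log2 quantile normalization, 275 with an offset of 50, 952 with median scaling, 93 with the authors' values, 1 without a detection filter, 105 with detection p under 0.01 and 426 with the robust intensity-dependent prior. Members called there numbered 9 with median scaling, 0 with the authors' values and 0 without the filter. In TAC_BIX against TAC_DMSO, genes called numbered 709, 563, 9, 642 and 699 with log2 quantile, offset of 50, median scaling, authors' values and robust prior, the last with 1 member (Lst1). In TAC_BIX against sham they numbered 3767 with median scaling (6 members), 369 without a filter and 1136 with the robust prior (2 members). The cause was not tested. Median scaling brought the median of all genes to 0.31, 0.23 and 0.53 in these comparisons and that of the members in the last to 0.60. With it members above 0 went from 27 to 34, from 3 to 8 and from 16 to 28 of 37. Signs are listed here only for the 26 members described array by array; among these Rac2 (0.10), Cd163 (0.20), Ccl6 (0.22) and Ccl9 (0.23) turned sign with vehicle, Retnla (0.0014) under drug, and Rac2 (0.0109), Cd74 (0.0371), H2-Aa (0.22), H2-Ab1 (0.11), H2-Eb1 (0.33) and Ccl9 (0.22) in TAC_BIX against sham. In that comparison C1qa also turned with log2 quantile (-0.0025) and the authors' values (-0.0113), and Lyz2 with the mean of its probes (-0.0139).

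Leaving out 1 array at a time, genes called ran from 0 to 166, 0 to 6 and 0 to 738 in the 3 comparisons, members called from 0 to 3, 0 to 1 and 0 to 1, and the median over members from -0.11 to 0.90, -0.87 to 0.11 and -0.50 to 0.27. A group left with 1 array was assumed to vary like the others. Among those 26 members, differences that turned sign ranged as follows with vehicle against sham: Tyrobp (-0.40 to 1.19), Fcer1g (-0.26 to 0.99), Clec4d (-0.12 to 2.22), C1qa (-0.19 to 0.92), C1qb (-0.0694 to 1.18), C1qc (-0.0311 to 0.90), Cd163 (-0.65 to 0.21), Cd74 (-0.15 to 0.54), Ccl6 (-0.49 to 0.13) and Ccl9 (-1.03 to 0.64). Under drug against TAC_DMSO they were Spi1 (-0.42 to 0.13), Clec4d (-2.09 to 0.24), Lyz2 (-0.55 to 0.39), C1qa (-0.90 to 0.21), C1qb (-0.78 to 0.23), C1qc (-0.71 to 0.22), Retnla (-0.31 to 0.22), Cd74 (-1.58 to 0.0896), Cx3cr1 (-1.06 to 0.11) and Ccl9 (-1.13 to 0.55). Under drug against sham they were Clec4n (-0.01 to 0.79), Ctss (-0.13 to 0.28), Lgals3 (-0.64 to 1.02), C1qa (-0.53 to 0.57), C1qb (-0.34 to 0.91), C1qc (-0.25 to 0.63), Cd74 (-1.39 to 0.29), H2-Aa (-1.19 to 0.27), H2-Ab1 (-1.43 to 0.40), H2-Eb1 (-1.13 to 0.47) and Cx3cr1 (-0.45 to 0.77). With a replicate block, genes called numbered 0, 0 and 253, and members called 0, 0 and 1. Deviations of same-numbered arrays correlated at -0.243 (sham with TAC_DMSO), 0.086 (sham with TAC_BIX) and -0.156 (TAC_DMSO with TAC_BIX). The labels name nothing that same-numbered arrays share besides the number, and a shared batch was not tested. Slide as a block was not run, since the headers name no slide. Members near the detection floor (Retnla, Clec4d, Spi1) have compressed differences, and 2 arrays a group limit every test.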
